A study of Mus musculus with 2 samples.

Results

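Nanog is a homeodomain transcription factor of pluripotent cells. Its occupancy around 9 genes of the bone morphogenetic protein (BMP) pathway was read from a chromatin immunoprecipitation (ChIP-seq) peak list of mouse embryonic stem cells (ESCs). The 9 genes were taken by name from 21755 protein-coding genes on chromosomes 1 to 19 and X, by a rule that uses no measured value, although earlier results of these data were known when they were chosen. They comprise 4 Id genes (Id1, Id2, Id3 and Id4), which are transcriptional targets of the pathway, and 5 pathway components (Bmp4, Bmpr1a, Smad1, Smad5 and Smad6). A peak was counted for a gene when its middle base lay within 100 kb of the gene's transcription start site (TSS), and 17 of 8737 distinct Nanog peaks did so. Separately, each peak was given to the protein-coding gene with the nearest TSS, and 13 peaks went to these genes.

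The study holds 1 Nanog ChIP sample and 1 input sample, the latter being sonicated chromatin that saw no antibody. Both came from Bruce-4, a single mouse ESC line grown in medium with serum and leukaemia inhibitory factor (LIF). The antibody was a rabbit monoclonal against Nanog. There was no treated, mutant or differentiated group, so the comparisons below are between genes and not between conditions, and none of the values has a replicate error. The peak list gives positions alone, on mm10, without a height, a score or a summit. The strength of a peak and the number of reads behind it therefore cannot be read from the list, and a gene without a listed peak may still carry signal below the calling threshold. A peak list holds no expression, and the identity of the cells was not checked against marker genes here.

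BMP ligands bind a complex of type I and type II serine/threonine kinase receptors, which phosphorylate the receptor-regulated effectors Smad1, Smad5 and Smad9. These join Smad4, enter the nucleus and activate targets, of which the Id genes are among the best known. Id proteins are helix-loop-helix factors without a DNA-binding region that sequester their E-protein partners. In mouse ESCs grown with LIF, BMP signalling and its Id targets are known for restraining neural differentiation.

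The sequence of the closest peak is shown for the Id genes, since these are the positions on which the distances below rest. All sequences are the plus strand of GRCm38, the assembly that mm10 denotes, written 5′ to 3′. Capitals mark exact matches to consensus motifs: Nanog core CCATTA, Esrrb TCAAGGTCA, and Sox CCTTTGT or CCATTGT, each on either strand. For Id1 the stretch chr2:152769675-152769974 is the middle of a wider peak, for Id3 the stretch chr4:136146871-136147170 was placed to hold its motif copies, and for Id4 chr13:48245264-48245498 is the whole peak. The closest Id2 peak lies in an untranslated region, and 30 bases around its Nanog core copy are given, at chr12:25096790-25096819.
Id1: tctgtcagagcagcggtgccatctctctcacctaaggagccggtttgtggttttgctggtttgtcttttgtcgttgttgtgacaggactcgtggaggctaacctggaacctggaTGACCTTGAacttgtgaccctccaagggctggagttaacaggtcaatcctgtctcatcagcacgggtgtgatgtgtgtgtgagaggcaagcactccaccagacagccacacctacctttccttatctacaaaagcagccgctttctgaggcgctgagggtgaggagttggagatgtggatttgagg
Id2: actataatgactCCATTAatcgaaggtcat
Id3: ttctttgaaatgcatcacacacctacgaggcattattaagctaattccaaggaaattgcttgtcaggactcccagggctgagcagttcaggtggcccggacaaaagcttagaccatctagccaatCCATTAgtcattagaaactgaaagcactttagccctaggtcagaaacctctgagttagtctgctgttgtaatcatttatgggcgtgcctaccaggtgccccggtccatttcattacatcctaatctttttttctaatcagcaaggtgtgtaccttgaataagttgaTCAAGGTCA
Id4: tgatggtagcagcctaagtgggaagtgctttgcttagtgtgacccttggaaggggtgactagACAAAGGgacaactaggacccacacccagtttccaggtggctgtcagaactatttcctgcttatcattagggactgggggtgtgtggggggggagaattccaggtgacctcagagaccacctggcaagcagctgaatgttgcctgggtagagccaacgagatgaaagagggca

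No motif was thus shared by all of the closest Id peaks. An Esrrb copy lay 32 bp from the peak centre at Id1, and a Nanog core copy 28 bp from the centre at Id2. The Id3 peak held both of these motifs, and the Id4 peak a Sox copy 52 bp from the centre. At Id3 the Nanog core copy lay 52 bp and the Esrrb copy 219 bp from the centre. A match is a description of letters and not of a bound site.

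Among the Id genes, Id3 (ENSMUSG00000007872.3, chromosome 4, 136143497 to 136145755, plus strand) had the most Nanog peaks, with 5 within 100 kb. Of all protein-coding genes, 1.94% had as many. Its closest peak, 136146702 to 136147192, was centred 3450 bp downstream of the TSS, beyond the end of the gene, and at 491 bp ranked 752 by width in the list. A peak 36.3 kb upstream was the other one for which Id3 was the nearest protein-coding gene. The remaining 3 lay 54.1 and 61.9 kb upstream, nearer to the ribosomal protein gene Rpl11, and 55.5 kb downstream, 7.32 kb from Asap3. All 5 peaks were annotated as intergenic, and the pair upstream lay 7.39 kb apart. With an Id3-nearest stretch of only 59.5 kb and 3 other protein-coding genes within 100 kb of its TSS, Id3 shared its window with other genes.

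Id2 (ENSMUSG00000020644.9, chromosome 12, 25093799 to 25097140, minus strand) had 4 peaks within 100 kb, a number reached by 4.73% of protein-coding genes. Id2 was the nearest protein-coding gene for all 4, and no other protein-coding gene had its TSS within 100 kb. The closest peak, 25096713 to 25096953, was centred 307 bp downstream of the TSS, and 1.503% of protein-coding genes had a peak as close. It lay wholly within the 5′ untranslated region of the longest Id2 transcript. The other annotated Id2 transcripts start at 25096092 and 25096087, and from these the same peak lay 741 and 746 bp upstream. Whether this position counts as upstream or downstream of Id2 therefore depended on the transcript.

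The other Id2 peaks were all upstream, at 23.7, 47.7 and 72.6 kb. The one at 47.7 kb, 25144591 to 25145160, was 570 bp wide, ranked 323 of 8735 and was the widest peak within 100 kb of any of the 9 genes. The one at 72.6 kb lay in an intron of the lincRNA Gm36287. The one at 23.7 kb stood on 2 lines of the list and was counted once. It held 2 copies of the Nanog core, one of them part of the extended motif GCCATTAA on the minus strand, and its sequence, chosen after the peaks were seen, is printed for that reason, from chr12:25120744-25121029.
Id2 upstream peak: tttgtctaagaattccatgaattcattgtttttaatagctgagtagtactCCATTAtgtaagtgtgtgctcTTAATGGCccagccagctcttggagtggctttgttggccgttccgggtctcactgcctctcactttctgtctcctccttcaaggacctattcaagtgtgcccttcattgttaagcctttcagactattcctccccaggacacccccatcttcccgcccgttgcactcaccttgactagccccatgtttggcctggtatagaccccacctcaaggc

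Id1 (ENSMUSG00000042745.9, chromosome 2, 152736251 to 152737410, plus strand) had 2 peaks within 100 kb and none within 25 kb. They were centred 33.6 and 36.2 kb downstream and lay 2.23 kb apart, edge to edge. Both were nearer to Cox4i2, which encodes a subunit of cytochrome c oxidase, at 15.7 and 18.2 kb, so that Id1 was the nearest protein-coding gene of no peak. The second, 152772249 to 152772557, had its centre in a repeat. It held an Esrrb copy 2 bp from its centre, a Sox copy 17 bp from it and a Klf copy (GCCACACCC) 117 bp from it. The other peak of Id3 with an Esrrb copy, 55.5 kb downstream, carried it 19 bp from the centre. These 2 sequences were chosen after the peaks were seen and are shown for the Esrrb copies near their centres, from chr2:152772253-152772552 and chr4:136198911-136199171.
Id1 second peak: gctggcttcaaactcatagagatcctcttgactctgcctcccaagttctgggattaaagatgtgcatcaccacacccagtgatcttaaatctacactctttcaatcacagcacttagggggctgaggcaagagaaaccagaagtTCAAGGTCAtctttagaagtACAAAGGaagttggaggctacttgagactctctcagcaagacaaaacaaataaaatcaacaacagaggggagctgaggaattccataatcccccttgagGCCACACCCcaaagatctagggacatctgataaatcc
Id3 downstream peak: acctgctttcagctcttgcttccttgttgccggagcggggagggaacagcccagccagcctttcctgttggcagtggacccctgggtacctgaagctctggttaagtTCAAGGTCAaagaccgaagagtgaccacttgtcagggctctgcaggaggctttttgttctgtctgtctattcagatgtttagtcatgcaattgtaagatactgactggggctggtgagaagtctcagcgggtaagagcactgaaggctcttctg

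Id4 (ENSMUSG00000021379.2, chromosome 13, 48261228 to 48266026, plus strand) had a single peak within 100 kb, centred 15.8 kb upstream in an intron of A330033J07Rik and Gm49291. Its width of 235 bp was the smallest in the list, shared by 778 peaks. No other protein-coding gene had its TSS within 100 kb, and the Id4-nearest stretch was 695.4 kb long. Id4 was the nearest protein-coding gene of 2 further peaks beyond the window, 134.5 and 405.4 kb upstream. Of these, the one at 134.5 kb held a Nanog core copy and the one at 405.4 kb a copy of GGCGCC, a GC-rich sequence that Smad proteins can bind. For Id4 the count by nearest gene (3) was thus above the count by window (1), whereas for Id1 and Id3 it was below.

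**Figure D1:**
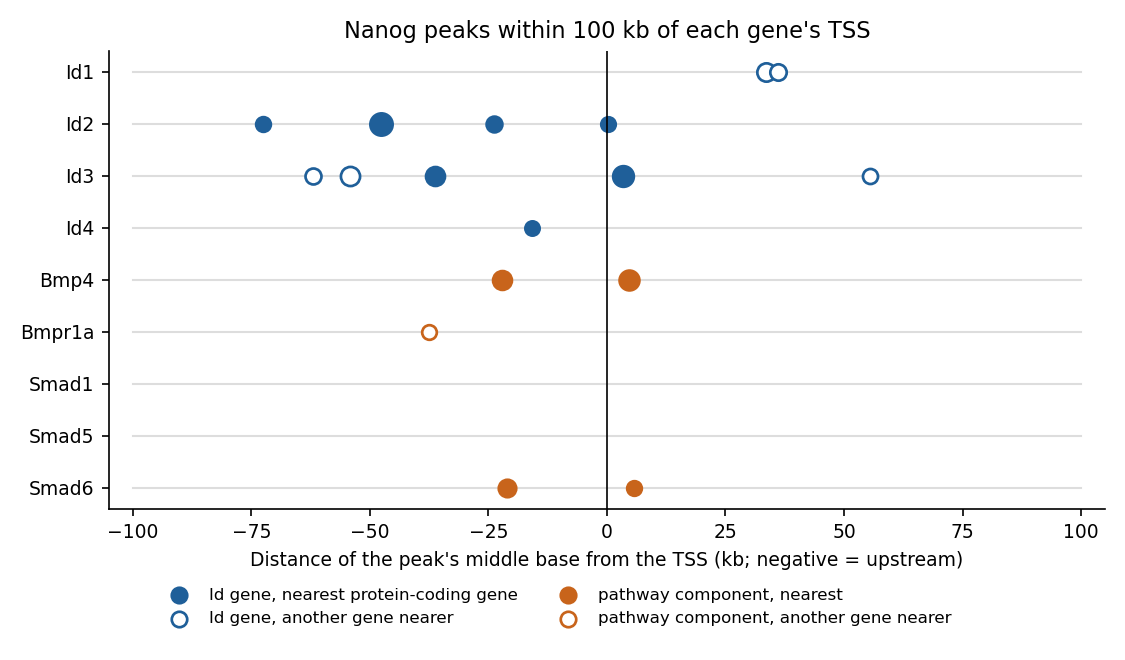
Nanog peaks within 100 kb of the TSS of each of the 9 genes, plotted by signed distance from the TSS to the middle base of the peak (kb, in the direction of transcription). Each point is 1 peak with its area scaled to the peak's width, and open points are peaks nearer to another protein-coding gene: Id3 has 5 points and Id2 has 4, while Smad1 and Smad5 have none.

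Of the components, the ligand gene Bmp4 (ENSMUSG00000021835.15, chromosome 14, 46383520 to 46390669, minus strand) had 2 peaks within 100 kb, and it was the nearest protein-coding gene of both. One lay 22.0 kb upstream between genes and held a Sox copy. The other, 46385888 to 46386340, was centred 4555 bp downstream of the TSS in a Bmp4 intron, with its centre in a repeat. It reached into an exon, overlapping 200 coding and 7 untranslated bases of Bmp4. It held 22 CpG dinucleotides, against a median of 3 over all peaks, and no copy of any of the 10 motifs searched. Of all protein-coding genes, 5.79% had a peak as close.

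Smad6 (ENSMUSG00000036867.7, chromosome 9, 63953076 to 64022059, minus strand), an inhibitory Smad that is itself induced by BMP signalling, also had 2 peaks and was the nearest protein-coding gene of both. One was intergenic, 21.1 kb upstream, and held no motif copy. The other, 64016174 to 64016419, lay in a Smad6 intron 5763 bp downstream of the TSS, and 691 bp downstream of another annotated Smad6 transcript start. It held 2 Sox copies, 9 and 109 bp from its centre, and a Nanog core copy 34 bp from it. The sequences of the closest peaks of Bmp4 and Smad6 are given for comparison with those of the Id genes. For Bmp4 only the intronic bases are printed, chr14:46386095-46386340, and for Smad6 the whole peak, chr9:64016174-64016419.
Bmp4: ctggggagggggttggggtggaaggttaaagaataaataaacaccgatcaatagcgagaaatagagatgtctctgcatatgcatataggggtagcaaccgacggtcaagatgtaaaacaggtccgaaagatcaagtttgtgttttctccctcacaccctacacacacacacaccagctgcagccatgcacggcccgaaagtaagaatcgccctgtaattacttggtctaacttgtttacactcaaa
Smad6: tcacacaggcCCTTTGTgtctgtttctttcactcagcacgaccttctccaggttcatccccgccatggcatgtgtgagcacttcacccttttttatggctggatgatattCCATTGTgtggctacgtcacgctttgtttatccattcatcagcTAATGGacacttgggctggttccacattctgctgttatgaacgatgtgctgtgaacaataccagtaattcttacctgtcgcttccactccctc

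Bmpr1a (ENSMUSG00000021796.15, chromosome 14, 34410734 to 34503341, minus strand) encodes a BMP type I receptor. It had 1 peak within 100 kb, 37.5 kb upstream in an intron of Ldb3, with a Sox copy 17 bp from its centre. That peak was nearer to 9230112D13Rik, at 18.02 kb, so that Bmpr1a was the nearest protein-coding gene of none.

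No peak lay within 100 kb of the effector genes Smad1 (ENSMUSG00000031681.16, chromosome 8, 79338395 to 79399518, minus strand) and Smad5 (ENSMUSG00000021540.16, chromosome 13, 56703010 to 56742377, plus strand). Their closest peaks lay 133.8 and 331.6 kb upstream, in each case nearer to another gene (Otud4 and Gm3045). Of all protein-coding genes, 63.7% had a peak as close as that of Smad1 and 86.0% one as close as that of Smad5. Neither was the nearest gene of any peak, in stretches of 172.3 and 72.2 kb.

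Set side by side, 4 of 4 Id genes and 3 of 5 components had a peak within 100 kb, against 54.8% of all protein-coding genes. The Id genes had 12 peaks in all, a median of 3.0 per gene with a range of 1 to 5. The components had 5, a median of 1.0 with a range of 0 to 2. All protein-coding genes had a median of 1.0 and a maximum of 10. The ranges of both classes overlapped, since Id1 with 2 peaks equalled Bmp4 and Smad6, and Id4 with 1 equalled Bmpr1a. With 4 and 5 genes and 1 library no test was made of this difference.

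Counts of 3 or more peaks within 100 kb, held by 11.4% of protein-coding genes, occurred at Id2 and Id3. The order of the 9 genes by count was Id3, Id2, then Id1, Bmp4 and Smad6 with the same number, then Id4 and Bmpr1a, then Smad1 and Smad5. Neighbours in this order differ by 1 or 2 peaks, and no replicate shows how far a count would vary.

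**Figure D2:**
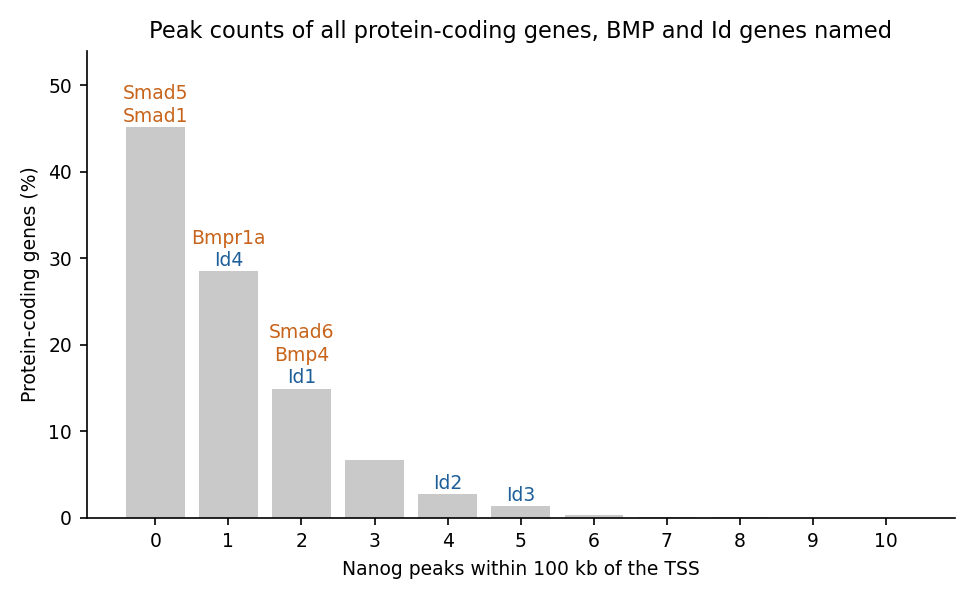
Number of Nanog peaks within 100 kb of the TSS (x axis) against the share of protein-coding genes with that count (y axis, %), with the Id genes and components named above their bars. Id2 and Id3 stand at 4 and 5 peaks, counts reached by 4.73% and 1.94% of genes, and the other 7 genes stand at 2 peaks or fewer.

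By nearest gene, 3 of 4 Id genes and 2 of 5 components were assigned a peak, against 24.6% of protein-coding genes. The Id genes took 9 peaks (4 for Id2, 3 for Id4, 2 for Id3 and 0 for Id1) and the components 4 (2 each for Bmp4 and Smad6). Of the 12 Id peaks within 100 kb, 7 were nearest to the Id gene and 5 to a neighbour. The stretch of genome over which a gene is nearest differed widely, from 33.6 kb at Id1 to 720.2 kb at Id2, and a longer stretch can hold more peaks. Per length, the Id genes had 5.97 peaks per Mb over 1.51 Mb, and the components 5.81 peaks per Mb over 0.688 Mb. All protein-coding genes had 3.46 peaks per Mb. With this assignment the classes were close in peaks per Mb, whereas in the windows, which are equally long for each gene, they had means of 3.0 and 1.0 peaks per gene.

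**Figure D3:**
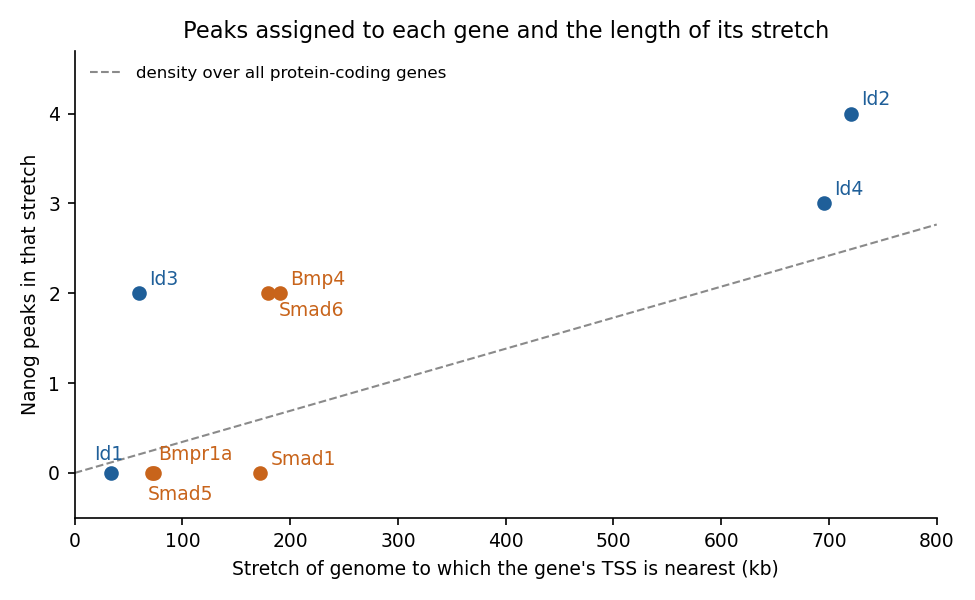
Number of Nanog peaks assigned to each gene (y axis) against the length of the stretch in which its TSS is the nearest protein-coding TSS (x axis, kb), with the density over all protein-coding genes as a dashed line. Id2, Id3, Id4, Bmp4 and Smad6 lie above the line, and Id1, Bmpr1a, Smad1 and Smad5 lie at 0 peaks.

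The closest peak was a median of 9.65 kb from the TSS for the Id genes and 37.5 kb for the components, against 85.3 kb for all protein-coding genes. Within 5 kb, a peak was found at Id2, Id3 and Bmp4, or 3 of 9 genes, against 6.25% of protein-coding genes. Within 25 kb it was found at 5 of 9 (Id2, Id3, Id4, Bmp4 and Smad6), against 21.4%. At 50 kb all 4 Id genes had a peak, against 35.2% of protein-coding genes, and 3 of 5 components did. At 500 kb all 9 genes had one, as did 91.4% of protein-coding genes, so that windows of this size no longer separated genes.

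**Figure D4:**
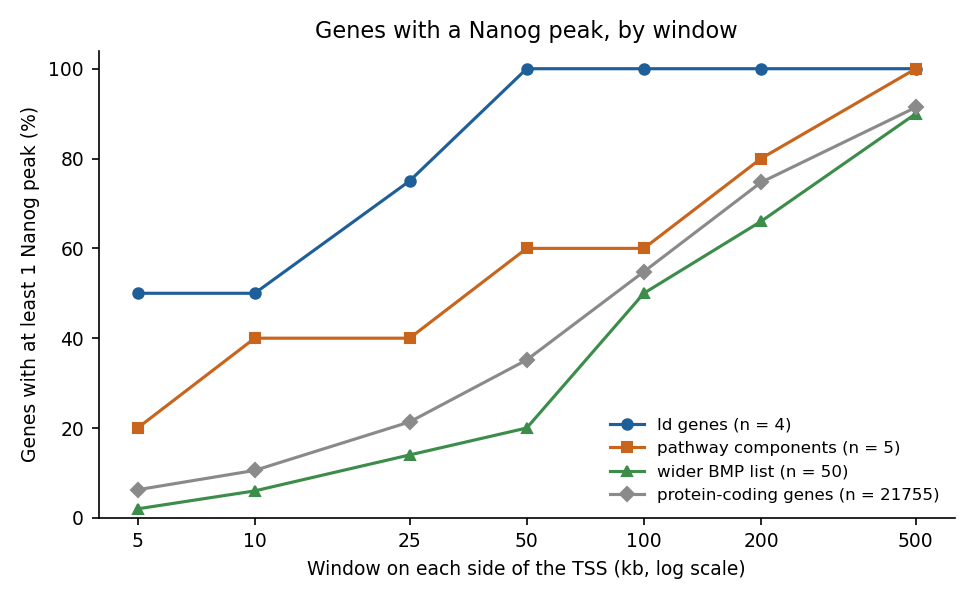
Share of genes with at least 1 Nanog peak (y axis, %) within windows of 5 to 500 kb around the TSS (x axis, kb, log scale) for the 4 Id genes, the 5 components, 50 other BMP pathway genes and all protein-coding genes. The Id genes reach 100% at 50 kb, the components 60.0%, and the 50 other genes 20.0%, against 35.2% of protein-coding genes.

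No peak touched the promoter windows of these genes, taken as 250 bases before to 50 after a RefSeq transcript start on GRCm38.p6. There were 10 such windows for 8 of the 9 genes, Id1 having no entry, and a peak overlapped 1.32% of all 32851 windows. The sequence GGCGCC occurred in windows of Id2, Id4, Bmpr1a and Smad5, and in 11.9% of all windows. The palindrome GTCTAGAC, to which Smad proteins also bind, occurred in that of Smad6 and in 0.213% of all windows. A Klf copy occurred in the windows of Id2, Id4 and Bmp4, and in 16.0% of all windows. No window of the 8 genes held the Nanog core (7.73% of all windows), Sox (9.28%), octamer (1.735%) or Esrrb (0.423%) letters. The windows of these genes were GC-rich, from 60.0% at Id3 to 79.3% at Bmpr1a, and the counts were not adjusted for GC content. Smad5 has several windows, so that genes and windows are not counted alike. The median GC content of the 17 peaks themselves was 50.3%, with a range of 45.6% to 58.5%, against 47.7% over all peaks. Their median width was 309 bp, against 319 bp. By annotation at the middle base, 11 were intergenic, 5 intronic and 1 lay in an untranslated region, whereas over all peaks introns held 47.5% and intergenic sequence 46.3%. A second peak within 12.5 kb was found for 4 of the 17 (23.5%), against 24.1% of all peaks, and these were the pairs at Id1 and Id3.

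Exact consensus copies were then counted in the 17 peaks, on both strands. The Esrrb motif, the recognition sequence of an orphan nuclear receptor of the pluripotency network, was present in 4 of 12 Id peaks (33.3%, exact 95% binomial interval 9.93 to 65.1) and in 0 of 5 component peaks (interval 0 to 52.2). Over all peaks it occurred in 3.53%, and in windows 1 kb beyond the peak edges in 1.17%. The 4 peaks belonged to Id1 (2) and Id3 (2), the Id1 pair are neighbours, and 3 of the 4 were nearer to another protein-coding gene than to the Id gene. In the 4 peaks the copies lay 2, 19, 32 and 219 bp from the centre, against a median of 68.0 bp over 321 copies in all peaks.

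The Sox motif showed the opposite order, with 3 of 5 component peaks (60.0%, interval 14.7 to 94.7) and 2 of 12 Id peaks (16.7%, interval 2.09 to 48.4), against 28.2% of all peaks. These intervals overlap and include the share of all peaks. The Nanog core occurred in 3 of 12 Id peaks and 1 of 5 component peaks, against 18.1%. The octamer ATGCAAAT was found in 0 of 17 (upper bound 19.5%), against 5.72%. The Smad sequences GGCGCC (3.35% of all peaks) and GTCTAGAC (0.424%), the Stat consensus TTCCNGGAA (1.33%) and the E-box CACGTG (4.24%) were found in 0 of 17 as well, and these shares lie below the same upper bound. At least 1 of the 6 pluripotency motifs (Nanog core and extended, Sox, octamer, Klf and Esrrb) was present in 10 of 17 peaks (58.8%), against 51.7% of all peaks. The intervals describe counting error alone, and they take each peak as independent of its neighbours. They are not corrected for the number of motifs and classes compared, and no test was made of any motif.

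**Figure D5:**
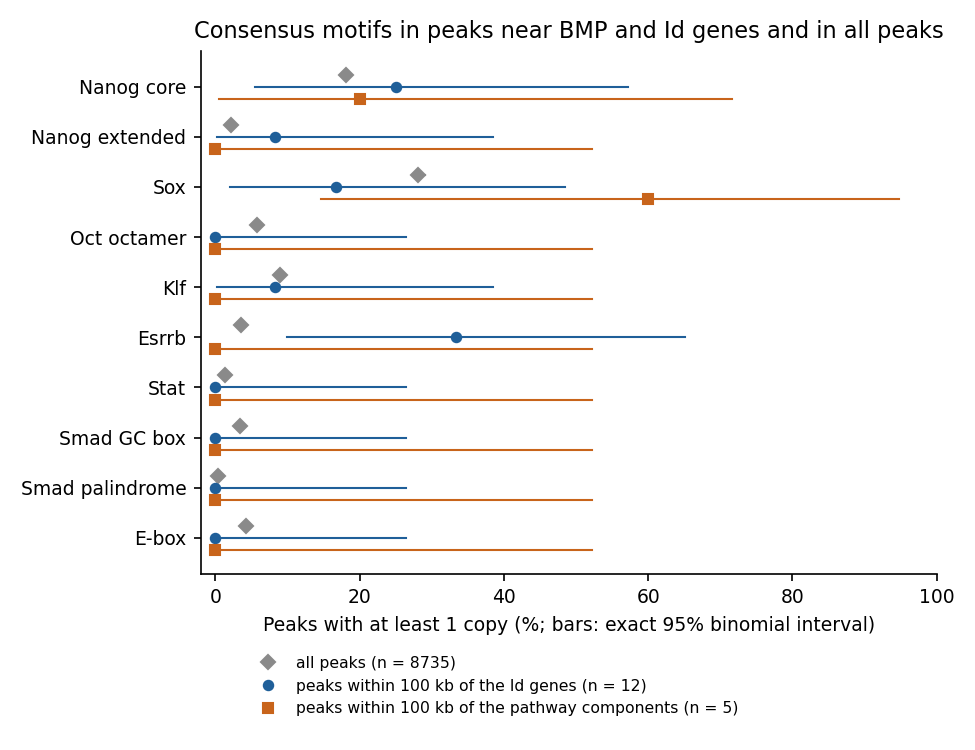
Share of peaks with at least 1 exact copy of each of 10 consensus motifs (x axis, %), for all peaks, the 12 peaks within 100 kb of the Id genes and the 5 within 100 kb of the components, with exact 95% binomial intervals. Esrrb stands at 33.3% in the Id peaks against 3.53% in all peaks, from peaks at Id1 and Id3 alone, and every other interval shown includes the share over all peaks. The intervals are not corrected for their number, so that some may miss that share by chance.

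To set the 9 genes within the pathway, 50 other BMP pathway genes were examined. Of these, 25 (50.0%) had a peak within 100 kb, close to the 54.8% of all protein-coding genes, and 11 were nearest to at least 1 peak, beside 24.6% of protein-coding genes. Their closest peak lay a median of 101.4 kb from the TSS. By role, a peak within 100 kb was found for 6 of 12 ligands, 2 of 6 receptors, 3 of 4 coreceptors, 1 of 2 effectors, 5 of 6 intracellular inhibitors, 4 of 10 extracellular antagonists, 0 of 3 extracellular modulators and 3 of 6 targets. The membrane inhibitor Bambi had 1 as well. Smad7, an inhibitory Smad like Smad6, had 10 peaks within 100 kb, a count that 2 protein-coding genes reached. Fst, which encodes the antagonist follistatin, had 3. The coreceptor gene Rgma, the type II receptor gene Bmpr2 and the ligand gene Gdf6 had 2 each, as did the coreceptor gene Rgmb and the intracellular inhibitor gene Skil, whose closest peaks lay farther from the TSS. Nog, which encodes the BMP antagonist noggin, was the only one of the 50 with a peak within 5 kb, centred 3324 bp upstream. Such a peak was found for 3 of the 9 genes described above and for 6.25% of all protein-coding genes.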

How the data were processed

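Nanog ChIP-seq was measured in 1 ChIP sample of Bruce-4 ESCs, with 1 input sample for which no peaks were used here. Per the study's methods and labels, reads were checked with FastQC and aligned to mm10 with Bowtie2. BEDtools and SAMtools served to discard low-quality, duplicate, mitochondrial and blacklisted reads, and MACS2 called the peaks. The threshold, and whether the input served as control, are not given in the sources used here. The authors deposited positions only (chromosome, start and end), so the reads behind a peak are unknown. The study's methods state a sequencing depth, but no number of reads left after filtering. Of 8860 lines, 123 repeated an interval and 8737 were distinct, with 8735 on chromosomes 1 to 19, X and Y.

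The TSS was the 5′ end of the annotated gene in GENCODE vM21, and distance ran from a peak's middle base. Each peak was assigned to the protein-coding gene whose TSS was nearest, up to 1000 kb. Coordinates are 1-based on mm10 (GRCm38). Motifs were matched exactly on both strands. The Klf consensus was searched as GCCACACCC, GCCACGCCC, GCCCCACCC and GCCCCGCCC, and every Nanog extended match also holds the Nanog core. Shares carry exact Clopper-Pearson intervals at 95%. No test was made between genes, because genes of 1 library are not replicates. Counting was checked on simulated data, with Python 3.11.15, NumPy 2.4.6 and SciPy 1.17.1. The 9 genes, the 50 further pathway genes (1 found by a synonym) and the motifs were chosen with earlier results of these data known. The rule named, of the 50, the 5 with most peaks within 100 kb, ties going to the closer peak, and any with a peak within 5 kb. Rgmb and Skil, tied but farther, were named besides. Sequences were printed for the closest peak of each Id gene and of each component with one within 25 kb, at most 300 bases each, besides those described as chosen after the peaks were seen.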

Additional observations from a re-analysis of the deposited data

How the results depend on the processing

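With 1 ChIP sample, no replicate could be left out. No paired analysis was possible because the study has 1 sample per group. Of 158 values recomputed under 9 alternatives, 129 stayed within 1.5 times the reported count or within the interval of the reported share, and 29 moved. Many of the 129 were counts of 0 that stayed 0, or came from settings that hardly alter the list. With only peaks at or above the median width of 319 bp, the Id genes fell from 12 to 5 peaks within 100 kb and from 9 to 4 by nearest gene, and the components from 5 to 3 within 100 kb. With a window of 200 kb the components rose from 5 to 11, and the share of protein-coding genes with a peak was 74.7%. With a window of 50 kb that share was 35.2%, and 10 in place of 25 of the 50 other pathway genes had a peak. When all annotated genes competed for a peak, the Id genes were nearest to 2 peaks in place of 9 and the components to 2 in place of 4. Among 126 values of single genes, 4 rose and 16 fell beyond that limit. Peaks per gene were higher for the Id genes than for the components in 7 of 7 settings for the window and 7 of 7 for the nearest gene. These settings reuse the same peaks. For the nearest gene, peaks per gene do not allow for the length of the stretches. Per length the classes were close, at 5.97 and 5.81 peaks per Mb. With all annotated genes competing, both classes had 2 peaks, and only their numbers of genes set them apart. Since the list gives no reads per peak, a missing peak is not a missing site.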

Other observations

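The 4 peaks at Id2 were spaced at similar gaps, 23.8, 23.6 and 24.5 kb edge to edge from the closest outwards. This spacing was noticed after the peaks were seen, and how often other genes show such spacing was not tested. With all annotated genes competing, the 3 upstream Id2 peaks were nearest to the lincRNA genes Gm17746 (8.29 kb), Gm36287 (6.04 kb) and Gm47705 (12.0 kb), and Id2 kept the peak at its own TSS. The Id1 peak in a repeat lay 486 bp from Gm23802, annotated as a miRNA gene.

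Of the 6 targets among the 50 other pathway genes, Msx2 had a peak 11.5 kb downstream of its TSS. Atoh8 had one 11.5 kb downstream of its TSS, in its own intron. The closest peaks of Dusp9, Hey1, Dlx5 and Msx1 lay 76.9, 341.6, 559.8 and 688.6 kb away. The median over the 6 targets was 209.2 kb, against 85.3 kb for all protein-coding genes. This comparison was chosen after the values were seen.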
